A study of Marmota monax with 7 samples.

Results

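The glutathione transferases GSTO1 and GSTM4, the glutathione peroxidase GPX2 and haem oxygenase 1, HMOX1, are 4 enzymes that handle electrophiles, peroxides and free haem. They were taken from a human membrane array by gene symbol, counting only probes that the platform annotation gives a single symbol, and are 4 of the 3011 genes named in that way. Each had 1 probe on the array of 5544 probes: number 1871 for GSTO1, 12 for GSTM4, 11 for GPX2 and 5536 for HMOX1. The arrays were hybridised with total RNA from liver of adult woodchucks, Marmota monax, which the labels call normal, and the 7 arrays differed in the amount of RNA: 0.1, 0.25, 0.5, 1, 2, 5 and 10 µg. The study varied the amount to see its effect on signal when RNA of one species meets probes of another. Each amount had 1 array, so no pair of amounts could be tested, and amount entered every fit as a number. Separate animals or preparations are not named in the labels, and the p-values therefore describe the scatter of 7 arrays, which may be technical and whose number limits the precision.

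Glutathione is a small thiol peptide kept at high concentration in liver cells. Transferases couple it to reactive compounds so that they can be excreted, and peroxidases use it to reduce hydrogen peroxide and lipid peroxides. GSTO1 belongs to the omega class, which also reduces oxidised vitamin C and methylated arsenic, and GSTM4 to the mu class. GPX2 is a selenoprotein best known from the epithelium of the gut, and HMOX1 is the inducible enzyme that opens the haem ring to release biliverdin, carbon monoxide and iron. Several of these genes are targets of the stress-responsive transcription factor NRF2.

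The 1st percentile of each array, taken here as its background, ran from 1329 at 0.1 µg to 3550 at 10 µg, with the highest value of 3782 at 5 µg. The array median ran from 1629 to 16151.5, with a higher value of 16520 at 5 µg. At 0.1 µg 8.64% of probes read above 2 times background, against 78.8% at 10 µg. Names deserve care, because probes that carry one sequence accession did not share their brightness (Spearman rho of percentiles -0.0799 over 117 pairs, which are not independent), nor did probes of one gene symbol (rho 0.0390 over 392 pairs). The annotation may therefore not match the rows of the value table, in which case the gene names given to signals here would not hold; it was used as given. None of the 4 enzymes has a further probe against which its name could be checked. Of 12 hepatocyte markers 7 had a probe, and their median percentile was between 65.4 and 86.7 on the 7 arrays. It was between 48.3 and 85.7 for 3 macrophage markers and between 38.6 and 84.8 for 3 red cell markers. For 4 markers of bile duct and gut-type epithelium it was between 24.3 and 56.5. Whether these values bear on the names was not tested. The probe of APOB, the main lipoprotein protein made by hepatocytes, read 1778 times background at 10 µg, while that of the plasma iron carrier transferrin, TF, read 2.57 times.

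GSTO1 was among the brightest probes of every array. Its signal was 31209 at 0.1 µg, 86400 at 0.25 µg, 202710 at 0.5 µg, 758413 at 1 µg, 2161166 at 2 µg, 11512000 at 5 µg and 9075528 at 10 µg. It was thus higher on each successive array up to 5 µg and lower on the last. Relative to background it stood at 23.5 times at 0.1 µg and at 3044 times at 5 µg, so that background made up little of its signal at any amount. It was the brightest probe of the array at 0.25 and 1 µg, and by mean log2 signal it ranked 3 of 5544. Between 0.1 and 10 µg, a 100-fold difference in RNA, its signal differed 291-fold without and 304-fold with subtraction of background.

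From array to array the steps of GSTO1 exceeded the step in RNA up to 5 µg. A 2.5-fold difference in RNA from 0.1 to 0.25 µg went with a 2.77-fold difference in signal, when the median probe differed 1.12-fold. Across the 2-fold step from 0.5 to 1 µg the signal differed 3.74-fold, and across the 2.5-fold step from 2 to 5 µg it differed 5.33-fold. From 5 to 10 µg the ratio was 0.788, against a median of 1.07 over all probes. These steps rest on single arrays and have no replicate check.

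GSTM4 began in the background and left it late. Its signal was 1605 at 0.1 µg, 1906 at 0.25 µg, 2120 at 0.5 µg, 3661 at 1 µg, 6624 at 2 µg, 49059 at 5 µg and 28307 at 10 µg. The first 4 arrays read between 1.21 and 1.92 times background and the last 3 at 3.11, 13.0 and 7.97 times. After subtraction of background 276 units were left at 0.1 µg, 529 at 0.25 µg, 534 at 0.5 µg, 1759 at 1 µg, 4495 at 2 µg, 45277 at 5 µg and 24757 at 10 µg. The 10 µg array therefore differed from the 0.1 µg array 17.6-fold without and 89.7-fold with subtraction. Only the latter lies near the 100-fold difference in RNA, and its lower end rests on 276 units above a background of 1329.

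GPX2 followed a similar course with a higher peak at 5 µg. It read 1462 at 0.1 µg, 2230 at 0.25 µg, 2584 at 0.5 µg, 3792 at 1 µg, 5983 at 2 µg, 79240 at 5 µg and 22510 at 10 µg. The signal at 0.1 µg was 1.10 times background and that at 1 µg 1.99 times, so the probe passed 2 times background on the arrays of 2, 5 and 10 µg. From 2 to 5 µg the signal differed 13.2-fold, a step larger than that of 96.2% of all probes, and at 5 µg it was 3.52 times that at 10 µg. With subtraction the 0.1 µg array kept 133 units and the 10 µg array 18960, a 143-fold difference that hangs on the very small lower value.

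The probes of GPX2 and GSTM4 carry adjacent numbers, and both peaked at 5 µg. The layout of probe numbers on the membrane was not given in the sources used here. On the array of 5 µg they stood at 4.80 and 2.97 times the array median, and the next numbers on either side, 10 without a symbol and 13 for CYP51A1, a sterol demethylase, stood at 1.27 and 0.973 times. Beyond these, number 9, without a symbol, stood at 1.58 times and 14, for the methionine aminopeptidase METAP1, at 2.63 times. Each of these neighbours also read more at 5 than at 10 µg, as many probes elsewhere did. From 5 to 10 µg the median ratio over all probes was 1.07, and 24.8% of all probes had a ratio below the 0.788 of GSTO1. Number 9 gave 26139 and 15006 units, and number 10 gave 20988 and 5726. For number 13 the signals were 16077 and 12670, and for 14 they were 43389 and 40330. Any part that the position of the spots had in the shared peak was not tested.

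HMOX1 stayed near the background of every array. Its signal was 1689 at 0.1 µg, 1651 at 0.25 µg, 2322 at 0.5 µg, 2535 at 1 µg, 2342 at 2 µg, 3595 at 5 µg and 4110 at 10 µg. These are between 0.951 and 1.46 times background, and 2 times was reached on 0 of 7 arrays, as for 855 of the 5544 probes. After subtraction 360 units were left at 0.1 µg, 274 at 0.25 µg, 736 at 0.5 µg, 633 at 1 µg, 213 at 2 µg and 560 at 10 µg, without an order in amount, and at 5 µg the probe lay below the background. Between 0.1 and 10 µg its signal differed 2.43-fold, while the background itself differed 2.67-fold. With this probe the HMOX1 signal stayed below the cut of 2 times background at every amount up to 10 µg. The signal was not tested against background, and at 0.1 µg only 8.64% of all probes passed the cut. The result does not show that the liver lacked the transcript. Macrophages of the liver, a known site of HMOX1, were represented by CD68, CD163 and CSF1R, which read 41.2, 16.3 and 2.40 times background at 10 µg.

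**Figure D1:**
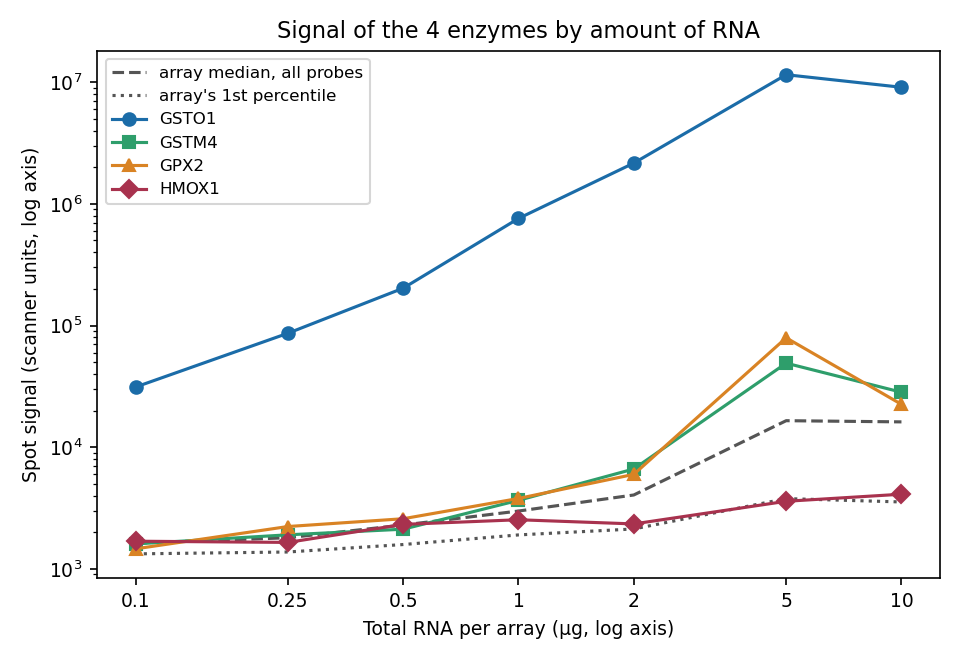
Spot signal (scanner units, log axis) of the 4 enzymes against total RNA per array (µg, log axis), 1 array at each amount, with the median and the 1st percentile of each array as broken lines. GSTO1 lies far above the median throughout. GSTM4 and GPX2 peak at 5 µg, at 2.97 and 4.80 times the median, and lie at 1.75 and 1.39 times at 10 µg. HMOX1 lies close to the median at 0.1 and 0.5 µg and near the 1st percentile from 2 µg on.

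**Figure D2:**
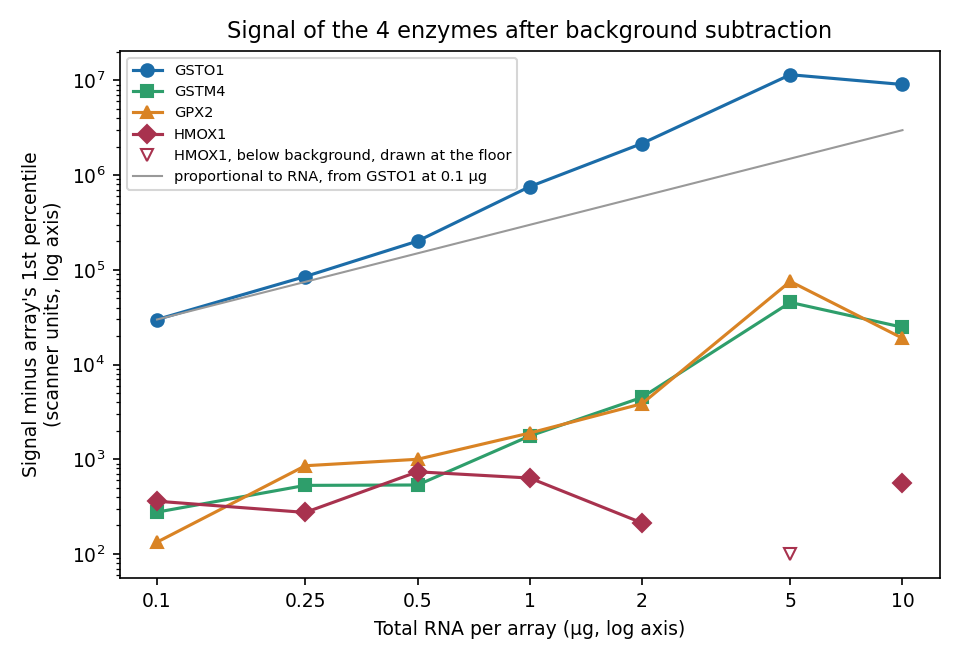
Signal minus the 1st percentile of the same array (scanner units, log axis) against total RNA per array (µg, log axis), with a grey line for proportion to RNA drawn from GSTO1 at 0.1 µg. HMOX1 stays between 213 and 736 units on 6 arrays and is drawn as an open symbol at the floor of 100 units at 5 µg, where it read below background.

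The rank of a probe among all probes of its array depends on no scaling. GSTO1 kept a percentile between 99.8 and 100 on all arrays. GSTM4 stood at 45.2 at 0.1 µg, at 35.7 at 0.5 µg and at 75.7 at 5 µg, its lowest and highest values being those at 0.5 and 5 µg. GPX2 stood at 15.2 at 0.1 µg, at 80.5 at 0.25 µg, at 83.4 at 5 µg and at 59.7 at 10 µg. HMOX1 stood at 59.8 at 0.1 µg, 28.2 at 0.25 µg, 52.1 at 0.5 µg, 26.8 at 1 µg, 4.09 at 2 µg, 0.631 at 5 µg and 3.16 at 10 µg. It thus lay above the middle of the array at 0.1 and 0.5 µg and near the bottom from 2 µg on. The same holds among the probes numbered above 2772, to which HMOX1 belongs and whose signals are lower, with 67.2 at 0.1 µg and 6.28 at 10 µg.

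Against log2 amount the percentile of HMOX1 had Pearson r = -0.878 (exact two-sided permutation p = 0.0119) and Spearman rho = -0.929 (exact permutation p = 0.00675) over 7 arrays. Adjusted over all probes, these exact permutation values were 0.319 and 0.292, and neither passed 0.05. Without 0.1 and 10 µg, the amounts farthest from the median, r was -0.782. For GSTM4 r was 0.676 (exact permutation p = 0.102, adjusted 0.471) and rho 0.679 (exact permutation p = 0.110, adjusted 0.563), with r = 0.639 without those 2 arrays. For GPX2 r was 0.500 (exact permutation p = 0.270, adjusted 0.634) and rho 0.214 (exact permutation p = 0.662, adjusted 0.919), and r was 0.169 without the 2 arrays. For GSTO1 r was -0.245 (exact permutation p = 0.592, adjusted 0.826) and rho -0.216 (exact permutation p = 0.636, adjusted 0.919), with r = -0.294 without them. The exact permutation test called 0 of 5544 probes (0% in either direction) by r and likewise 0% by rho, while 12% had an unadjusted p under 0.05 by r and 10.4% by rho.

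**Figure D3:**
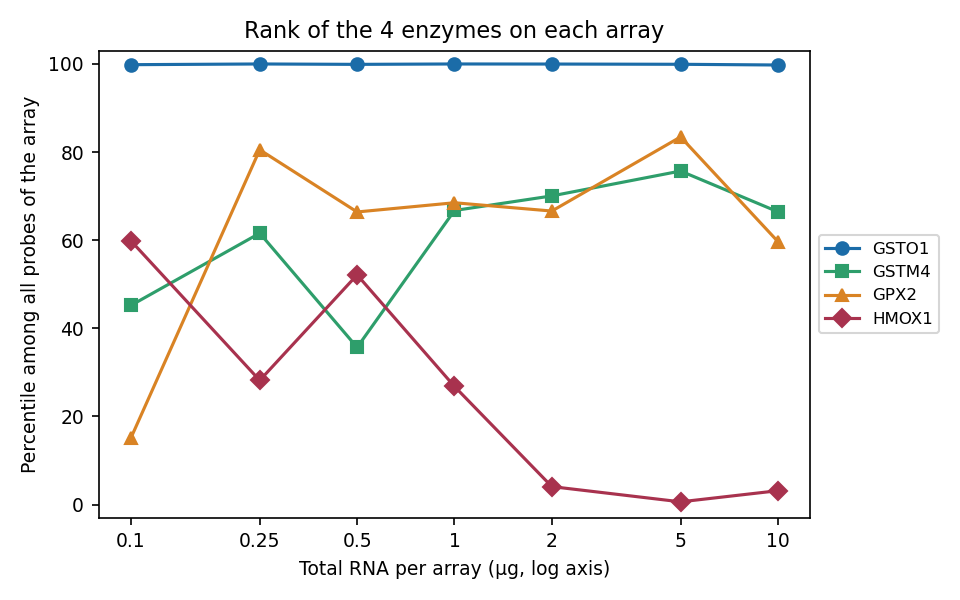
Percentile of each of the 4 enzymes among all 5544 probes of its array, against total RNA per array (µg, log axis), 1 array at each amount. GSTO1 remains at the top, while HMOX1 moves from 59.8 at 0.1 µg to 3.16 at 10 µg.

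With limma, log2 signal was regressed on log2 amount for each probe, so that a slope of 1 is signal in proportion to RNA. Without scaling all 4 enzymes rose, as did 99.9% of all probes, and 0% fell. The slope of GSTO1 was 1.38 ± 0.10 log2 units per doubling (SE, 7 arrays; limma adjusted p = 1.64e-07), with a 95% interval from 1.17 to 1.58 that lies above 1. GSTM4 had 0.77 ± 0.12 (limma adjusted p = 5.65e-05) and GPX2 0.77 ± 0.14 (0.000192), with intervals of 0.52 to 1.02 and 0.47 to 1.07. The slope of HMOX1, 0.20 ± 0.07 (limma adjusted p = 0.0167), was lower than that of all but 0.559% of probes, where the median probe had 0.57. The slope of the background level itself was 0.25, given with no test. The exact permutation test of r, adjusted over all probes, gave 0.00111 for GSTO1, 0.00275 for GSTM4, 0.00601 for GPX2 and 0.00361 for HMOX1. On the 5 arrays from 0.1 to 2 µg the slopes of GSTM4 and GPX2 were 0.46 and 0.45, and HMOX1 did not pass (0.15, limma adjusted p = 0.0705), nor did it without the array of 0.25 µg (0.19, 0.0729) or that of 10 µg (0.19, 0.0990).

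Relative to the median of the array GSTO1 rose and HMOX1 fell. In this fit 33.9% of all probes rose and 30.9% fell. GSTO1 had a slope of 0.81 ± 0.09 (limma adjusted p = 1.59e-05) and HMOX1 one of -0.36 ± 0.07 (0.00102). GSTM4 rose at 0.21 ± 0.06 (limma adjusted p = 0.0108), while GPX2, at 0.21 ± 0.09, did not pass (0.0556). With the 75th percentile in place of the median GSTM4 turned to -0.018 (limma adjusted p = 0.792) and GPX2 to -0.017 (0.857), whereas GSTO1 kept 0.59 and HMOX1 had -0.59. Relative to the 1st percentile, a scaling added after the data were seen, HMOX1 had -0.049 ± 0.047 (limma adjusted p = 0.352), and no fall against the background was detected. Under quantile normalization limma called 0 probes in either direction, the 4 enzymes included, and GSTO1 had -0.025 (limma adjusted p = 0.853). That setting gives every array the same distribution of signal. GSTO1 lay at percentiles of 99.8 to 100 on all arrays, so its slope was held flat there and could not show a rise.

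After subtraction of background 95.5% of 5310 probes rose and 0% fell, and GSTO1, GSTM4 and GPX2 were among those that rose. Their slopes were 1.38 ± 0.13 (limma adjusted p = 1.46e-06), 1.16 ± 0.15 (1.09e-05) and 1.20 ± 0.17 (2.11e-05), where the median probe had 0.97. The 95% interval of GSTO1, 1.11 to 1.66, lay above 1, as did that of 708 of the 5310 probes. Those of GSTM4 and GPX2, 0.84 to 1.48 and 0.84 to 1.57, held 1. HMOX1 had -0.09 ± 0.16 (limma adjusted p = 0.575), with an interval from -0.44 to 0.26 that lies wholly below 1. Its value at 5 µg was set to the floor of 100 units for this fit. Without the array of 5 µg the slope was 0.06 (limma adjusted p = 0.691), and with the lowest probe of each array as background it was 0.28 (0.0229), which passed.

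**Figure D4:**
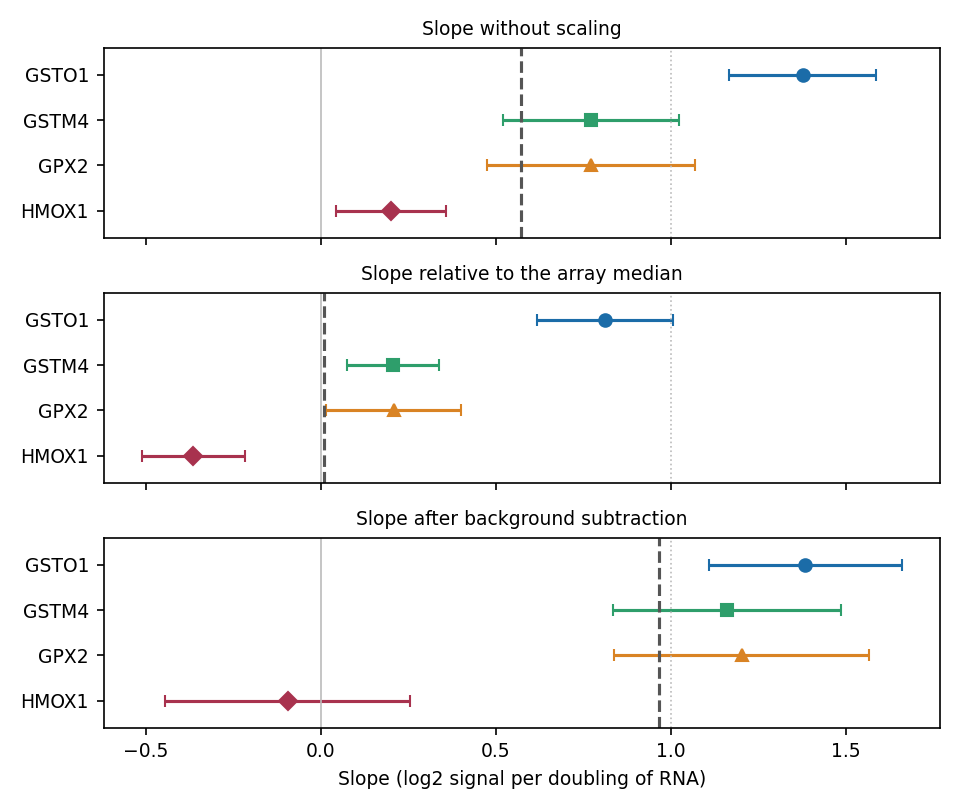
Slopes of the 4 enzymes (log2 signal per doubling of RNA) with their 95% intervals from limma over 7 arrays, in 3 panels for signal without scaling, relative to the array median and after background subtraction; dashed lines mark the median slope of all probes and dotted lines a slope of 1. After subtraction GSTM4 and GPX2 move from 0.77 each to 1.16 and 1.20, GSTO1 stays at 1.38 and HMOX1 lies at -0.09.

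The slopes of the 6 pairs of enzymes were compared through the log2 ratio within each array, with an exact two-sided permutation of the 7 arrays and adjustment over the 6 pairs. Without subtraction GSTO1 exceeded GSTM4 by 0.61 ± 0.12 log2 units per doubling (SE; exact permutation p = 0.00238, adjusted 0.00714), GPX2 by 0.60 ± 0.14 (0.0101, adjusted 0.0152) and HMOX1 by 1.18 ± 0.11 (0.000595, adjusted 0.00357). GSTM4 exceeded HMOX1 by 0.57 ± 0.14 (exact permutation p = 0.00833, adjusted 0.0152), and GPX2 exceeded it by 0.57 ± 0.18 (0.0173, adjusted 0.0207). After subtraction the differences of GSTO1 from GSTM4 (0.22 ± 0.11, exact permutation adjusted p = 0.171) and from GPX2 (0.18 ± 0.15, 0.341) no longer passed. HMOX1 remained below GSTO1 by 1.48 ± 0.28 (exact permutation adjusted p = 0.0262), below GSTM4 by 1.25 ± 0.34 (0.0310) and below GPX2 by 1.30 ± 0.37 (0.0310). GSTM4 and GPX2 differed by -0.0012 ± 0.06 without subtraction (exact permutation adjusted p = 0.988) and by -0.04 ± 0.13 with it (0.767). With any 1 of the arrays of 0.1, 0.25, 0.5, 1 or 2 µg left out, the 3 subtracted differences from HMOX1 had exact permutation adjusted p-values of 0.0583 to 0.122, where only 6 arrays were permuted. Without subtraction the array of 0.1 µg decided the call of GSTO1 against GPX2 (adjusted p = 0.0650 by exact permutation without it). That of GPX2 against HMOX1 was lost without 0.1 µg (0.0650) or 0.25 µg (0.0600).

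For each enzyme the 3 genes with the most similar course, by Pearson r of the signal relative to the array median over 7 arrays, were drawn from the 3010 other genes. The points share arrays and background, and many genes had a high r: 355 genes above 0.95 for GSTO1, 114 for GSTM4, 82 for GPX2 and 420 for HMOX1. Nearest to GSTO1 were KLHDC10 (r = 0.997), BABAM2 (0.997), a subunit of a deubiquitinating complex, and ALAS1 (0.996), the first enzyme of haem synthesis in liver. Nearest to GSTM4 were TMEM187 (0.996), the transcription factor PAX8 (0.995) and the hydrolase ABHD2 (0.994). The probe of TMEM187 read 54498 at 5 µg and 29223 at 10 µg, a higher value at 5 than at 10 µg like that of GSTM4. Nearest to GPX2 were the pantothenate kinase PANK2 (0.996), the peptidase TPP2 (0.996) and FAM167A (0.996). TPP2 read 82209 at 5 µg and 21189 at 10 µg. Nearest to HMOX1 were DMAC2L (r = 0.9996), the small GTPase RAB25 (0.998) and the growth factor TGFB3 (0.997), which at 10 µg read 4588, 5056 and 5557, all near the background of 3550. Among the 4 enzymes themselves the highest r was that of GSTM4 with GPX2 (0.911) and the lowest that of GSTM4 with HMOX1 (-0.931).

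The enzymes were set beside 42 measured genes of 5 lists, the 4 included, each gene by its brightest probe. Without scaling 41 of the 42 rose, against 99.9% of all 3011 genes, and the exception was NQO2, a quinone reductase (0.30 ± 0.14, limma adjusted p = 0.0507). The array of 0.5 µg gave it 13311 units, more than any of the other 6 arrays. Relative to the array median 18 rose, 10 fell and 14 did neither, against 38.5% and 26.6% of all genes, and the median slope was 0.11 against 0.05. With the 75th percentile 9 rose and 20 fell of the 42, against 17.3% and 53.1% of all genes. After subtraction 41 of 42 rose, against 96.8% of genes, with a median slope of 1.05 against 1.00 for 2909 genes, and HMOX1 was the one that did not. The slopes of the other 38 then lay between 0.54 and 1.40, and that of HMOX1 was below all of them.

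Of 8 measured glutathione transferases 3 rose relative to the array median and 3 fell, with a median slope of -0.07. Besides GSTO1 and GSTM4 the microsomal transferase MGST1 rose (0.16 ± 0.04, limma adjusted p = 0.00670), though not with the 75th percentile (-0.07, 0.291). The mu-class enzymes GSTM2 (-0.19 ± 0.06, limma adjusted p = 0.0232) and GSTM3 (-0.18 ± 0.04, 0.00555) and the pi-class enzyme GSTP1 (-0.16 ± 0.05, 0.0250) fell. At 10 µg GSTM2 read 1.85 and GSTM3 2.02 times background, where GSTM4 read 7.97 times. GSTO1 was the only transferase above 2 times background on all 7 arrays. So were 468 of the 5544 probes, among them those of GCLC, GGT7, ALAS1 and MT1X in the other lists. Human mu-class genes are close in sequence, and how far their probes share target was not tested. Both measured glutathione peroxidases, GPX2 and GPX4, the enzyme of lipid peroxides in membranes, failed to pass relative to the median, with GPX4 at 0.017 ± 0.045 (limma adjusted p = 0.758). After subtraction GPX4 rose at 0.85 ± 0.15 (limma adjusted p = 0.000146), beside 1.20 for GPX2.

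Among 10 genes of glutathione synthesis and turnover 5 rose relative to the array median and 2 fell, with a median slope of 0.17. GCLC, the catalytic subunit of the rate-limiting step of glutathione synthesis, rose at 0.79 ± 0.06 (limma adjusted p = 1.58e-06), and read 11100 at 0.1 µg and 2862663 at 10 µg. GGT7, of the gamma-glutamyltransferase family (0.70 ± 0.07), and CTH, which makes cysteine (0.45 ± 0.06), also rose, both also with the 75th percentile. GSS, glutathione synthetase (-0.12 ± 0.04, limma adjusted p = 0.0340), and AHCY, of homocysteine metabolism (-0.12 ± 0.05, 0.0401), fell, and GGT5 did not pass (0.014 ± 0.048, 0.807). GCLC had a second probe, at percentile 82.2 of mean log2 signal against 97.1 for the first, with a slope of 0.29. At 10 µg this second probe read 56120 units, against the 2862663 of the first.

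Of 9 genes of haem and iron 5 rose relative to the array median and 2 fell, with a median slope of 0.24. The haem synthesis enzymes ALAS1 (0.62 ± 0.06), UROD (0.58 ± 0.05) and FECH (0.55 ± 0.04) rose (limma adjusted p at most 6.75e-06), also with the 75th percentile, and read 148, 68.4 and 53.5 times background at 10 µg. HMOX1, at 1.16 times, and TF (-0.16 ± 0.05, limma adjusted p = 0.0128) were those that fell. UROS, another synthesis enzyme, did not pass (0.0034 ± 0.045, limma adjusted p = 0.951). Its 3 probes lay at percentiles of 45.7, 24.7 and 18.5. The second had a slope of -0.099 (limma adjusted p = 0.0739), and the third fell at -0.17 (0.00920). BLVRA, which reduces the biliverdin made by HMOX1 and is named here after its values were seen, gave 158034 units at 5 µg against 2501 at 2 µg and 6558 at 10 µg, and its slope of 0.09 ± 0.19 did not pass (limma adjusted p = 0.681).

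In the list of other redox and NRF2 pathway genes 5 of 13 rose relative to the array median and 3 fell, with a median slope of 0.023. The metallothionein MT1X (0.75 ± 0.07), the bile canalicular exporter ABCC2, which carries glutathione conjugates (0.62 ± 0.06), and the paraoxonase PON1, secreted by the liver (0.35 ± 0.05), rose (limma adjusted p at most 0.000173). PON1 did not pass with the 75th percentile (0.12, limma adjusted p = 0.0713). MT1H, another metallothionein (-0.22 ± 0.05, limma adjusted p = 0.00278), and the peroxiredoxin PRDX4 (-0.19 ± 0.05, 0.00526) fell, and at 10 µg they read 1.83 and 2.11 times background. In all 5 lists the genes that fell read at most 2.84 times background at 10 µg, and the genes that rose at least 6.86 times. The array of 10 µg is itself an end of the fitted line, so this split is in part built in. At 0.1 µg both sets overlapped, with 1.08 to 1.38 times background for the genes that fell and 1.06 (ALAS2) to 23.5 times (GSTO1) for those that rose.

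**Figure D5:**
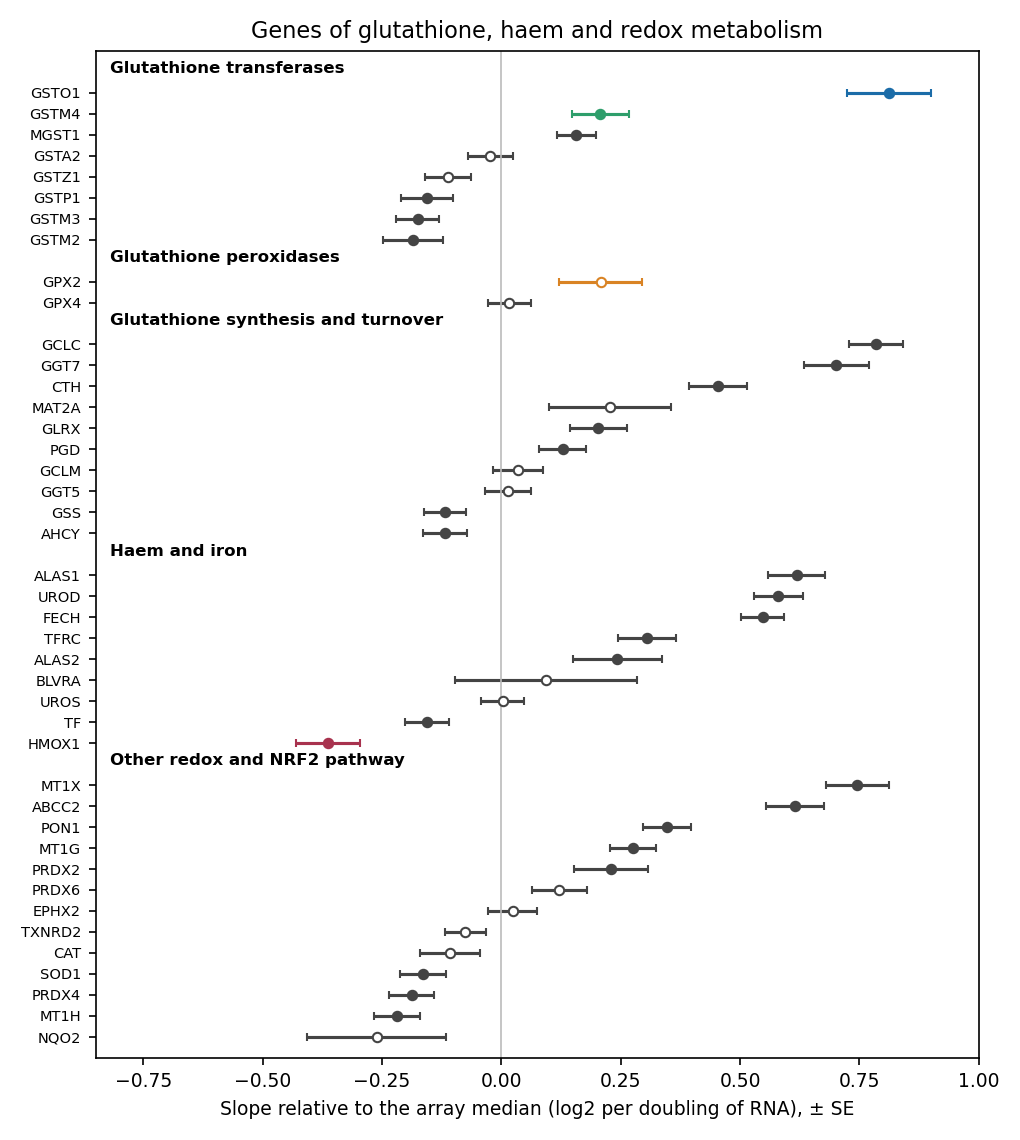
Slope relative to the array median (log2 per doubling of RNA, ± SE from limma over 7 arrays) for the 42 measured genes of 5 lists, each by its brightest probe; filled points passed a limma adjusted p of 0.05 and the 4 enzymes are in colour. GSTO1 has the highest slope of the 42 and HMOX1 the lowest.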

How the data were processed

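Each sample has 1 array, deposited as whole, positive intensity values per spot, taken as linear. Scanning, background correction and scaling by the authors were not given in the sources used here. The array medians differ, so the arrays were not scaled to one median. Of the 5544 probes 3346 had 1 gene symbol, 95 several and 2103 none. The 4 genes and the 5 gene lists were chosen with earlier results of these data known. The lists are glutathione transferases, glutathione peroxidases, glutathione synthesis and turnover, haem and iron, and other redox and NRF2 pathway genes, and 4 lists of cell type markers were added.

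Signals were log2 transformed and fitted on log2 amount with limma 3.58.1 in R 4.3.3, over all probes, with adjustment after Benjamini and Hochberg and a threshold of 0.05. Values entered without scaling, after subtraction of the array median, and on the signal minus the 1st percentile of the array with a floor of 100 units. Probes at the floor on 2 or more arrays, 234 in all, were not tested in the last. Percentiles and pairs of enzymes were tested by exact permutation of all 5040 pairings, counting results of equal or larger absolute size. The smallest p of r is then 0.000198. The percentile p-values were adjusted over all probes and not, as first planned, over the 4 enzymes; under the first plan HMOX1 would have passed 0.05 by both r and rho. Other steps ran in Python 3.11.15 with pandas 2.3.3, numpy 2.4.6 and scipy 1.17.1, and plots were drawn with matplotlib 3.10.9. The fit and the permutation test were tested on simulated data.

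Named genes were the 4 enzymes, the 3 genes most alike to each, and in each list the 3 of highest mean log2 signal and the 3 of lowest slope relative to the median. Where a gene had several probes, the one with the highest mean of log2 signal stood for it. Alternatives were other arrays, filters, floors, background levels, centrings and tests. Centring on the 1st percentile and within 2 parts of the probe numbers, split at probe 2772, was added after the data were seen. Sequences of the probes and a woodchuck genome were not used here.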

Additional observations from a re-analysis of the deposited data

How the results depend on the processing

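No paired analysis was possible because each amount has 1 array. The slope of HMOX1 could not be tested with the filter on dim probes, nor after subtraction with the floor of 500 or the 5th percentile as background, since it did not pass the filter or lay at the floor on several arrays. Its differences from the other 3 enzymes at the floor of 500 were 1.39, 1.08 and 1.01 (GSTO1, GSTM4, GPX2). HMOX1 lay at that floor on 4 of 7 arrays, so these differences largely repeat the slopes of the other enzymes there. Those slopes were 1.38, 1.07 and 1.01. As each gene has 1 probe, the mean of a gene's probes changed nothing. With 1 array at each amount, signals below 2 times background limit what can be said of GSTM4 and GPX2 below 2 µg and of HMOX1 throughout.

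With 0.1 to 2 µg only, HMOX1 had a slope of 0.15 without scaling and -0.17 relative to the median, and GSTM4 one of 0.15 relative to the median, none of which passed (limma), while 282 probes fell against 1713 with 7 arrays. After subtraction 4 probes then fell, against 0. Centring on the 75th percentile turned GSTM4 to -0.018 and GPX2 to -0.017, with 856 probes up and 3212 down. Quantile normalization gave GSTO1 -0.025, GSTM4 0.11 and HMOX1 -0.18, with 0 probes called in either direction by limma. Centring in 2 parts of the probe numbers left GSTM4 at 0.098, which did not pass. On the 1st percentile 4215 probes rose and 0 fell, GPX2 had 0.52 and passed, and HMOX1 had -0.049 and did not. With an intensity trend GPX2 passed at 0.21. The filter on dim probes left 841 falls. The lowest probe as background gave HMOX1 0.28, and a floor of 500 gave 2052 rises and a difference of 0.064 between GSTM4 and GPX2. The causes were not tested.

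With each array left out in turn, slopes without scaling ran from 1.29 to 1.53 for GSTO1, 0.64 to 0.91 for GSTM4, 0.58 to 0.89 for GPX2 and 0.19 to 0.22 for HMOX1. Relative to the median they ran from 0.73 to 0.98, 0.15 to 0.27, 0.090 to 0.35 and -0.45 to -0.30, and GPX2 passed without 10 µg (0.35). After subtraction they ran from 1.30 to 1.54, 1.01 to 1.30, 1.00 to 1.41 and -0.28 to 0.057, and probes that fell from 0 to 2. The r of the percentile ran from -0.69 to 0.42 for GSTO1, which turned without 10 µg, 0.56 to 0.82 for GSTM4, -0.29 to 0.73 for GPX2, which turned without 0.1 µg, and -0.93 to -0.80 for HMOX1. Without subtraction the difference of GSTO1 from GSTM4 ran from 0.48 to 0.72, from GPX2 0.53 to 0.71 and from HMOX1 1.10 to 1.34. That of GSTM4 from GPX2 ran from -0.079 to 0.057 and from HMOX1 0.45 to 0.69, and that of GPX2 from HMOX1 0.39 to 0.71. After subtraction the same 6 ran from 0.11 to 0.29, 0.099 to 0.29, 1.24 to 1.82, -0.16 to 0.16, 0.96 to 1.54 and 0.95 to 1.69. The sign of GSTM4 minus GPX2 turned without 0.1 µg (0.042, and 0.16 after subtraction) or 5 µg (0.057 and 0.0099).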

Other observations

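Markers of the cell types of liver, each by its brightest probe, were read on the same arrays. The background for their counts, which cover 3 to 7 genes each, is a rise in 38.5% and a fall in 26.6% of all 3011 genes against the median, and 17.3% and 53.1% against the 75th percentile. Relative to the array median, 6 of 7 hepatocyte markers rose and 1 fell (limma, adjusted p under 0.05), but 3 rose and 1 fell with the 75th percentile. The median slope of the list was 0.23, against 0.053 for all 3011 genes. The apolipoproteins APOB and APOE and the cytochrome CYP2E1 had slopes relative to the median of 0.79 ± 0.06, 0.72 ± 0.07 and 0.65 ± 0.05 (SE), and were above 2 times background on all 7 arrays, as GSTO1 was.

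Of 3 macrophage markers 2 rose and 0 fell relative to the median, and 1 rose and 1 fell with the 75th percentile. CD68, a lysosomal glycoprotein of macrophages, read 2273 at 0.1 µg and 146171 at 10 µg. Of 4 markers of bile duct and gut-type epithelium, the kind of epithelium from which GPX2 is best known, 1 rose and 1 fell, and 1 rose and 3 fell with the 75th percentile. At 10 µg the keratin KRT19 read 22.1 times background, KRT8 4.92 times, SOX9 2.14 times and KRT7 1.31 times. KRT7 read more at 5 µg, with 17996 units or 4.76 times background, against 4655 units at 10 µg. Of 3 red cell markers 3 rose and 0 fell, with 1 rise under the 75th percentile. ALAS2, the erythroid first enzyme of haem synthesis, read 89089 at 5 µg and 25167 at 10 µg. The erythroid transcription factor GATA1 read 112205 and 108864 on those arrays, and SLC4A1, the anion exchanger of the red cell membrane, 22361 and 32662. Whether RNA of these cells contributed to the signals of GPX2 or HMOX1 was not tested.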
